A study of Mus musculus with 30 samples.

Results

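The genes described here are 10 members of the Notch pathway among the 14118 genes of the count matrix: the receptors Notch1, Notch2, Notch3 and Notch4, the ligands Dll4, Jag1 and Jag2, the glycosyltransferase gene Mfng, and the target genes Hey1 and Heyl. They were chosen by name and matched through their Entrez gene identifiers, and all 10 were found. RNA was sequenced from 6 cell populations sorted from each of 5 mammary tumours, numbered 5, 6, 8, 10 and 11, of FVB/N mice carrying the polyoma middle T transgene under the mouse mammary tumour virus promoter (MMTV-PyMT). That promoter drives the oncogene in mammary epithelium, so every population here is transgenic host stroma of an epithelial tumour, with no transgene-free or tumour-free control among the libraries used here. Endothelial cells were sorted as CD45- CD31+. The cancer-associated fibroblast group CAF1 was CD45- CD31- CD90+ CD34-, and CAF2 was CD45- CD31- CD90+ CD34+. Macrophages were CD45+ F4/80+ and were split into CD206hi (CD206+ with low MHCII), CD206pos (CD206+ with high MHCII) and CD206neg (CD206- with low MHCII). Each population gave 1 library per tumour, 30 in all, from tumours of a stated 750 mm3. The labels do not say whether each tumour came from its own mouse, so p-values here measure the spread between these tumours.

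Notch receptors are single-pass proteins that are cut when a ligand on a neighbouring cell pulls on them, and the freed intracellular part enters the nucleus, binds RBPJ and switches on genes such as those of the Hes and Hey families. In blood vessels DLL4 acts on NOTCH1 to restrain sprouting and to set arterial identity, NOTCH4 is a receptor of endothelium, and NOTCH3, with JAG1 presented by endothelium, maintains the mural cells around vessels. Fringe enzymes such as MFNG add sugars to the receptors and shift which ligands they answer.

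The starts of Notch4 and Dll4 are shown because their levels were the most alike among the members, and that of Notch3 because it was the receptor with its highest level in CAF1. The sequences are RefSeq windows on GRCm38.p6, 250 bases before to 50 after the start, 5′ to 3′ on the gene's own strand. Capitals mark matches to any of 5 motifs, searched on both strands. They were TGANTCA for the AP-1 factors, CAGGAAG for factors of the ETS family, AGATAA for zinc finger factors of the Gata family, TATAAA for the core promoter box, and TGGGAA for RBPJ.
Notch4, chr17:34564045-34564344, plus strand: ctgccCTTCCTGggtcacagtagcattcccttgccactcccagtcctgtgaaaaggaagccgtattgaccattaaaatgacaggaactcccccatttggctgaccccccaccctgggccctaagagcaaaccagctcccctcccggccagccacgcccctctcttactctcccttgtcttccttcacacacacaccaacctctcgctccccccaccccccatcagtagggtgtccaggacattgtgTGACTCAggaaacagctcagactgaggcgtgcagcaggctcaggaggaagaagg
Dll4, chr2:119325534-119325833, plus strand: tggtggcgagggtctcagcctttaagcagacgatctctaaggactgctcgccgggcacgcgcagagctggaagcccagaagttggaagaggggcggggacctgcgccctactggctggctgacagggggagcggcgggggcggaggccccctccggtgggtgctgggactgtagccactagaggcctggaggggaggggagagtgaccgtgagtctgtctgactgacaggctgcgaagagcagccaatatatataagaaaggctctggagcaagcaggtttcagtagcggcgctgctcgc
Notch3, chr17:32166841-32167140, minus strand: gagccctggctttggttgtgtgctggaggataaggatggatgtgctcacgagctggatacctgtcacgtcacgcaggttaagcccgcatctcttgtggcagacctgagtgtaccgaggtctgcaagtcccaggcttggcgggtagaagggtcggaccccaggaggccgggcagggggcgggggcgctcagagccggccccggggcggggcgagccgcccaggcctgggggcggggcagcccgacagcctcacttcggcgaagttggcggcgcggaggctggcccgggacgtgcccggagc
The Notch4 window held 1 AP-1 match, which begins 4 bases before the window's start site. It also held 1 ETS match on the opposite strand, which begins 245 bases before that site. The start sites of the Notch4 and Notch3 windows lie a few bases inside the gene positions given below. The AP-1 letters occurred in 7.81% and the ETS letters in 13.3% of all 32851 windows of the same length. Notch4 also had 5 CpG and 58.3% G and C, while the Dll4 window had 17 CpG and 63.7%, and the Notch3 window had 25 CpG and 70.0%. The median of all windows was 7 CpG and 52.7%. None of these 5 motifs was found in the windows of Dll4 and Notch3, nor in those of Notch1, Notch2, Jag1 and Jag2, and the RBPJ letters, which stood in 25.6% of all windows, were absent from all 7 windows searched. These matches describe letters in a window and say nothing of binding.

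Libraries held 6292411 to 11957076 counts, and levels are given as CPM, each count set against the size of its library, scaled by TMM factors of 0.547 to 1.67, which adjust for libraries in which few genes take a large share. In such units 3 counts corresponded to 0.168 to 0.726 CPM. The sorts carried their own markers: the summed level of 10 endothelial genes was 2359 to 5971 CPM in endothelial libraries and at most 108 CPM in any other library, and the sum of 8 macrophage genes was 11540 to 47380 CPM in macrophage libraries and at most 37.9 CPM elsewhere. Some libraries also carried markers of other cells. The endothelial libraries of tumours 5 and 8 had smooth muscle sums of 390 and 1213 CPM, against 21.1 to 98.7 CPM in the other 3, and pericyte sums of 1475 and 1555 CPM, against 682 to 962 CPM. The myoepithelial sum was 957 CPM in the endothelial library of tumour 5, against 43.4 to 214 CPM in the other endothelial libraries. The CAF1 libraries carried pericyte sums of 913 to 2712 CPM beside fibroblast sums of 25750 to 241800 CPM. Luminal epithelial sums reached 2131 CPM in endothelial, 1816 CPM in CAF1, 510 CPM in CAF2 and 1067 CPM in macrophage libraries. None of the 6 lymphocyte markers was a row of the matrix, so lymphocytes could not be checked. The CD206neg columns of tumours 6 and 8 are named as MHCII high in the matrix but are MHCII low by the labels, which were followed here. Member calls that changed without the endothelial libraries of tumours 5 and 8 or the CD206neg libraries of tumours 6 and 8 are given below.

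Notch4 led the receptors in endothelial cells, Notch3 in CAF1 and Notch2 in CAF2. Of the ligands Dll4, Jag1 and Jag2, Dll4 led in endothelial cells and Jag1 in the other 5 populations. Divided by exon length, so that genes can be set beside each other, the 4 receptors summed to 39.2 ± 12.6 CPM per kb in endothelial cells, 11.5 ± 3.74 in CAF1, 4.58 ± 0.489 in CAF2, 6.95 ± 2.41 in CD206hi, 7.87 ± 3.01 in CD206pos and 3.77 ± 0.659 in CD206neg (SD, n = 5 each). Notch4 made up 55.0 ± 2.59% of that sum in endothelial cells, with Notch1 at 38.2 ± 7.37%. Notch3 made up 54.9 ± 11.1% in CAF1 and Notch2 82.1 ± 9.06% in CAF2. Macrophages were divided between Notch1 and Notch2: Notch1 took 45.1 ± 7.55% in CD206hi, 47.9 ± 7.15% in CD206pos and 59.2 ± 5.98% in CD206neg, and nearly all of the rest was Notch2. Among these ligands Dll4 made up 81.6 ± 3.83% of the endothelial sum, whereas Jag1 made up 84.0 ± 13.9% in CAF1, 99.4 ± 0.815% in CAF2 and 66.9 to 69.9% on average in the 3 macrophage groups. Other ligands were not in the sum, such as Dll1, which averaged 32.9 CPM in endothelial cells, above Jag1 at 19.5 CPM. These shares are descriptions and were not tested.

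**Figure D1:**
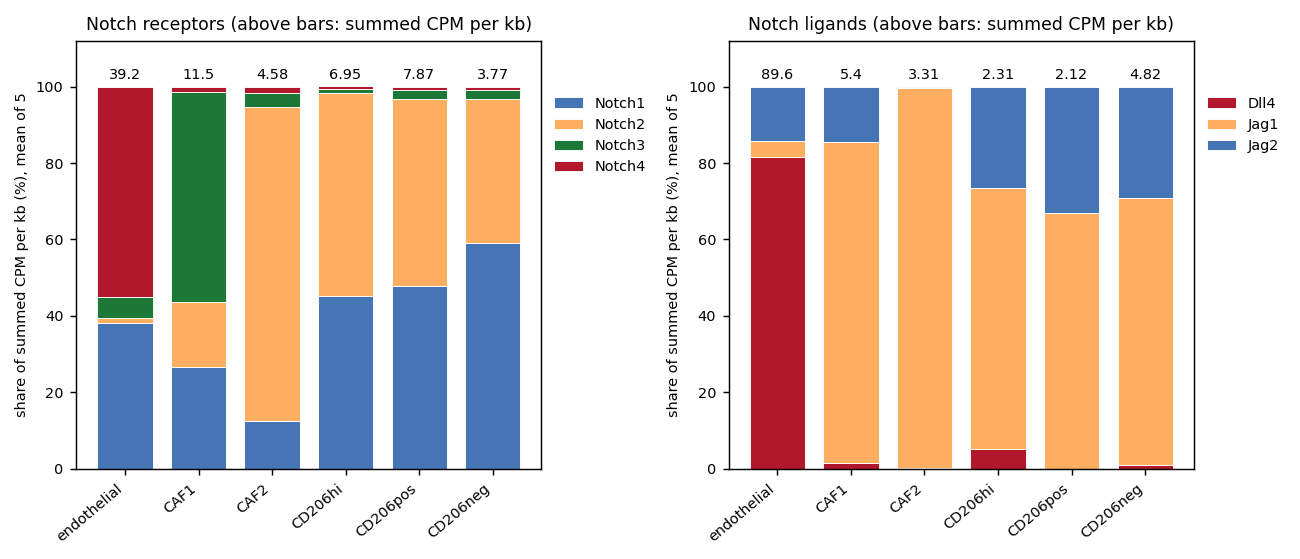
Stacked bars give the mean share over 5 libraries of each receptor (left) or ligand (right) in the summed CPM per kb, by population. The ligands summed are Dll4, Jag1 and Jag2 only, and the mean summed CPM per kb is written above each bar. Notch4 and Notch1 fill the endothelial receptor bar, Notch3 leads in CAF1 and Notch2 in CAF2, and Dll4 leads the ligands in endothelial cells only.

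Notch4 (Entrez gene 18132, chromosome 17, 34564286 to 34588543 on GRCm38.p6, as for all positions below) was the most endothelial receptor. Its levels in endothelial cells were 142, 170, 74.4, 208 and 121 CPM in tumours 5, 6, 8, 10 and 11. It was 0.708 to 1.43 CPM in CAF1, 0 to 0.924 CPM in CAF2 and 0 to 0.870 CPM in macrophages. No library outside the endothelial sort came near the lowest endothelial one. The fold change was 150 against CAF1 (log2 7.23 ± 0.48 SE, edgeR adjusted p = 1.82e-12), 270 against CAF2 (log2 8.08 ± 0.50, adjusted p = 2.65e-13) and 535 against macrophages (log2 9.06 ± 0.35, adjusted p = 3.84e-19), each higher in 5 of 5 tumours. In these bulk libraries fewer expressing cells and less RNA per cell cannot be told apart. Notch4 was also called 3.56-fold higher in CAF1 than in macrophages (log2 1.83 ± 0.49, edgeR adjusted p = 0.00171). That call rested on 47 counts over the CAF1 libraries and 11, 13 and 6 over CD206hi, CD206pos and CD206neg. The same few macrophage counts stand under the 535-fold change. The endothelial marker sum was 41.4 to 108 CPM in CAF1 and 3.54 to 14.3 CPM in macrophages, but Esam alone averaged 55.6 CPM in CAF1. Esam, Emcn, Tek, Erg and Egfl7 had higher means in CAF1 than in each macrophage group. Pecam1, Cdh5, Kdr, Tie1 and Cldn5 had lower ones. The part of endothelial cells in the Notch4 difference was not tested.

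Notch1 (Entrez gene 18128, chromosome 2, 26457902 to 26503822), the receptor through which DLL4 restrains sprouting, was highest in endothelial cells but present in every population. Its endothelial levels were 151, 181, 49.4, 206.3 and 148 CPM in the 5 tumours. In CAF1 it was 37.6, 33.2, 33.5, 27.4 and 12.8 CPM, and in CAF2 it was 1.29, 9.09, 7.22, 4.57 and 4.44 CPM. Endothelial and CAF libraries did not overlap, nor did the CAF groups. Its medians were 26.1 CPM in CD206hi (18.4 to 52.8), 39.8 CPM in CD206pos (19.1 to 63.1) and 19.4 CPM in CD206neg (16.2 to 26.9). Endothelial cells were 5.07-fold above CAF1 (log2 2.34 ± 0.41, edgeR adjusted p = 3.21e-05), 27.9-fold above CAF2 (log2 4.80 ± 0.46, adjusted p = 9.59e-10) and 5.15-fold above macrophages (log2 2.37 ± 0.29, adjusted p = 3.12e-08). CAF1 exceeded CAF2 by 5.54-fold (log2 2.47 ± 0.42, edgeR adjusted p = 0.00131). CAF2 was lower than macrophages (log2 -2.43 ± 0.38, edgeR adjusted p = 2.08e-06), and CAF1 and macrophages had a log2 difference of 0.02 ± 0.32 (adjusted p = 0.956). Of the 9488 exon bases of Notch1, 1378 overlap genes on the other strand. How strand was counted is not given in the sources used here, so reads of these genes cannot be told apart there. Notch3 likewise overlaps Gm17276 on the other strand over 488 exon bases, and Notch2 overlaps Gm42820 on its own strand over 541.

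Notch3 (Entrez gene 18131, chromosome 17, 32120820 to 32166896), the receptor of mural cells, had its highest level in CAF1, at 78.3, 71.9, 54.8, 23.8 and 31.7 CPM in tumours 5, 6, 8, 10 and 11. In endothelial cells it was 22.1, 1.38, 30.1, 2.37 and 5.76 CPM. The endothelial libraries thus fell apart, with those of tumours 5 and 8 high and the other 3 low. It was 0.370 to 1.94 CPM in CAF2 and 0.107 to 2.25 CPM in macrophages. Endothelial cells were lower than CAF1 (log2 -2.07 ± 0.59, edgeR adjusted p = 0.0064), and lower in 5 of 5 tumours although the ranges overlapped. Without the endothelial library of tumour 8 this difference was -2.73, and without those of tumours 5 and 8 it was -4.05 (edgeR adjusted p = 7.12e-06). CAF1 was 40.2-fold above CAF2 (log2 5.33 ± 0.44, edgeR adjusted p = 1.16e-05) and 60.9-fold above macrophages (log2 5.93 ± 0.48, adjusted p = 5.75e-12), with no overlap in either. Endothelial cells were 9.43-fold above CAF2 (log2 3.24 ± 0.66, edgeR adjusted p = 0.000177). Without the endothelial libraries of tumours 5 and 8, which had the highest smooth muscle and pericyte sums, that call was lost (log2 1.25, adjusted p = 0.0727). Against macrophages the endothelial difference was 3.86 on the log2 scale (edgeR adjusted p = 5.05e-08), and 1.89 without those 2 libraries (adjusted p = 0.00138).

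Notch2 (Entrez gene 18129, chromosome 3, 98013538 to 98150367), a broadly expressed receptor, was the member with its lowest level in endothelial cells. There it was 6.03, 8.65, 1.68, 2.77 and 4.74 CPM. In CAF1 it was 16.9, 16.2, 22.0, 22.2 and 15.8 CPM, and in CAF2 it was 41.6, 33.6, 31.0, 48.4 and 43.9 CPM. These 3 sets of libraries did not overlap. Endothelial cells were lower than CAF1 (log2 -1.98 ± 0.32, edgeR adjusted p = 1.04e-05), CAF2 (log2 -3.07 ± 0.33, adjusted p = 7.2e-09) and macrophages (log2 -2.58 ± 0.29, adjusted p = 7.24e-09), in 5 of 5 tumours each. CAF1 was lower than CAF2 (log2 -1.07 ± 0.17, edgeR adjusted p = 0.000682). Among macrophages Notch2 was 47.2, 48.0, 21.8, 26.9 and 49.4 CPM in CD206hi and 26.3, 39.4, 27.0, 48.1 and 56.0 CPM in CD206pos, against 18.3, 16.7, 14.8, 14.2 and 10.1 CPM in CD206neg. Both CD206-positive groups lay wholly above CD206neg: CD206hi was 2.60-fold higher (log2 1.38 ± 0.27, edgeR adjusted p = 0.00254) and CD206pos 2.64-fold higher (log2 1.40 ± 0.27, adjusted p = 0.00191). CAF1 was called lower than the mean of the macrophage groups (log2 -0.60 ± 0.25, edgeR adjusted p = 0.0404). That call was lost on leaving out CAF1 of tumour 5, 6 or 11, CD206hi of tumour 5, 6 or 11, CD206neg of tumour 5, or CD206pos of tumour 10 or 11 (adjusted p from 0.0538 to 0.0933), and also with DESeq2 (0.0561) and with RLE scaling factors (0.066). CAF2 against macrophages was not called (log2 0.49, edgeR adjusted p = 0.0717), but was on leaving out the endothelial library of tumour 8 (adjusted p = 0.0357) or CD206pos of tumour 11 (0.0464), and in a fit of only these groups (0.0224).

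**Figure D2:**
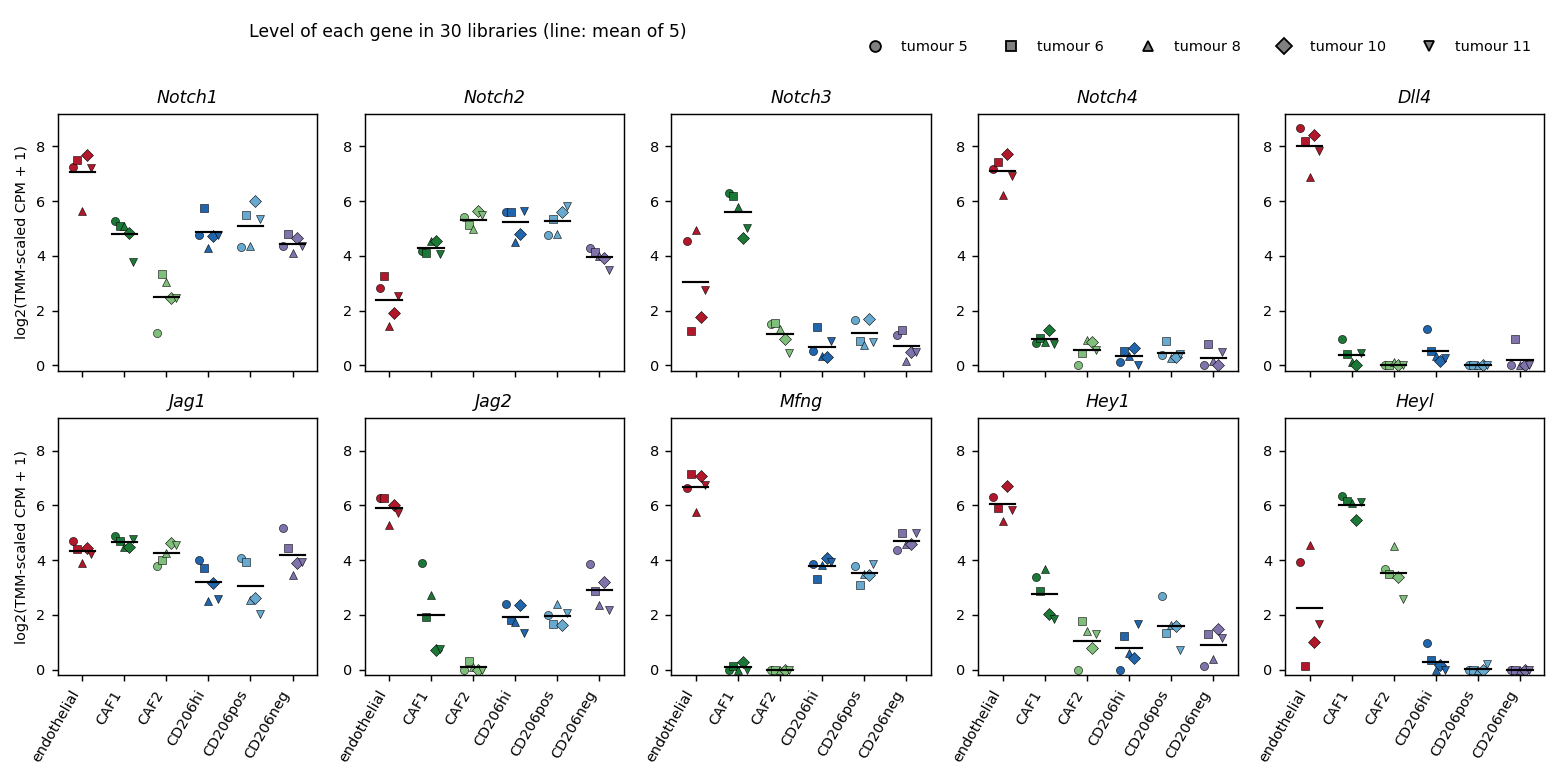
Each panel shows 1 gene, with log2(TMM-scaled CPM + 1) on the vertical axis and the 6 populations along the horizontal axis; each point is 1 library, its shape gives the tumour, and the line is the mean of 5 values. Dll4 and Notch4 are high in endothelial libraries and near 0 elsewhere, Heyl and Notch3 are highest in CAF1 with endothelial points spread widely, and Jag1 lies at similar heights in most groups.

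Dll4 (Entrez gene 54485, chromosome 2, 119325784 to 119335666), the Notch ligand of sprouting and arterial endothelium, reached 411, 292, 116, 344 and 224 CPM in the endothelial libraries. CAF1 held 0 to 0.952 CPM, the CD206hi group 0.113 to 1.48 CPM, and CD206neg 0 to 0.968 CPM with 4 of 5 libraries at 0. All 5 CD206pos libraries had 0 counts, which allows up to 0.0768 CPM over the group, counting error only. CAF2 had 1 count in all, against 17347 in endothelial cells, a ratio of 15200 with a 95% counting interval of 2730 to 601000 (edgeR adjusted p = 3.56e-12). Endothelial cells were 708-fold above CAF1 (log2 9.47 ± 0.66, edgeR adjusted p = 3.01e-11) and also above macrophages (edgeR adjusted p = 7.95e-17), where 17347 counts stood against 28 over the 15 macrophage libraries, a ratio of pooled counts per library size of 1090 with a 95% counting interval of 754 to 1640. Between CAF1 and macrophages the adjusted p was 0.0572 at 20 and 28 counts in all, and 0.0354 with the tumour as a block. That difference was also called, with CAF1 higher, on leaving out the endothelial library of tumour 8, CAF1 of tumour 8 or 10, CD206hi of tumour 5 or CD206neg of tumour 6 (edgeR adjusted p from 0.01 to 0.0459), and without CD206neg of tumours 6 and 8 (0.0143). The endothelial difference from CAF1 was 10.56 on the log2 scale without CAF1 of tumour 5. On 214 exon bases Dll4 overlaps the antisense gene Gm14207.

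Jag1 (Entrez gene 16449, chromosome 2, 137081451 to 137116520), the ligand through which endothelium signals to mural cells, differed least between populations. It was 25.1, 20.3, 14.0, 20.6 and 17.6 CPM in endothelial cells, 28.8, 25.4, 21.3, 21.2 and 26.4 CPM in CAF1, and 12.9, 15.3, 18.2, 23.6 and 22.4 CPM in CAF2. The 3 sets overlapped. The log2 difference was -0.33 ± 0.36 for endothelial cells against CAF1 (edgeR adjusted p = 0.521) and 0.08 ± 0.36 for endothelial cells against CAF2 (adjusted p = 0.884), so neither was called. Jag1 was 14.9, 12.1, 4.76, 7.92 and 5.03 CPM in CD206hi and 15.8, 14.4, 4.89, 5.12 and 3.06 CPM in CD206pos, against 35.1, 21.1, 10.1, 13.8 and 14.3 CPM in CD206neg. In each tumour the CD206neg value was the highest of the 3. The log2 differences of -1.05 ± 0.46 for CD206hi and -1.12 ± 0.46 for CD206pos against CD206neg were not called (edgeR adjusted p = 0.186 and 0.109), but both were called with the tumour as a block (adjusted p = 0.00292 and 0.000973). That of CD206pos was also called without CD206pos of tumour 5 (edgeR adjusted p = 0.0487) and in the fit of all 30 libraries (0.0404). Against macrophages as a whole, endothelial cells were 1.71-fold (log2 0.78 ± 0.29, edgeR adjusted p = 0.0202), CAF1 2.16-fold (log2 1.11 ± 0.28, adjusted p = 0.00113) and CAF2 1.63-fold higher (log2 0.70 ± 0.29, adjusted p = 0.0357). The endothelial call was lost without the endothelial library of tumour 5 (adjusted p = 0.0689). The CAF2 call was lost on leaving out CAF2 of tumour 8, 10 or 11, CD206hi of tumour 8 or 11, CD206neg of tumour 6, 8, 10 or 11, or CD206pos of tumour 8 or 10 (adjusted p from 0.05 to 0.128). It was also lost without CD206neg of tumours 6 and 8 together (log2 0.60, edgeR adjusted p = 0.0851) and in a fit of only these groups (0.0541).

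Jag2 (Entrez gene 16450, chromosome 12, 112907803 to 112929812), a second Jagged ligand, followed the endothelial pattern at lower levels than Dll4. It was 77.1, 77.0, 38.1, 64.2 and 52.1 CPM in endothelial cells, 13.8, 2.80, 5.63, 0.659 and 0.708 CPM in CAF1, and 0 to 0.242 CPM in CAF2. CAF1 varied the most, and the highest value was that of tumour 5, whose CAF1 library had a myoepithelial marker sum of 2758 CPM, against 82.4 to 556 CPM in the other 4. The part of those cells in the Jag2 value was not tested. Endothelial cells were 12.5-fold above CAF1 (log2 3.64 ± 0.54, edgeR adjusted p = 2.95e-06) and 15.2-fold above macrophages (log2 3.92 ± 0.37, adjusted p = 1.5e-10). Without CAF1 of tumour 5 the difference from CAF1 was 4.58 on the log2 scale. CAF2 had 3 counts in all, against 3889 in endothelial cells, a ratio of 1140 (389 to 5520, edgeR adjusted p = 9.29e-11). Among macrophages Jag2 was 4.27, 2.50, 2.32, 4.19 and 1.53 CPM in CD206hi and 2.96, 2.18, 4.31, 2.12 and 3.22 CPM in CD206pos, against 13.7, 6.29, 4.16, 8.23 and 3.52 CPM in CD206neg. CD206pos was lower than CD206neg (log2 -1.27 ± 0.41, edgeR adjusted p = 0.0423), in 4 of 5 tumours and with overlapping ranges. That call was lost on leaving out CD206neg of tumour 5, 6 or 10, or CD206pos of tumour 5, 6, 10 or 11 (adjusted p from 0.0586 to 0.16), and in the fit of all 30 libraries (0.11). CD206hi was below CD206neg in 5 of 5 tumours (log2 -1.25 ± 0.41) without a call (edgeR adjusted p = 0.059), and was called with the tumour as a block (adjusted p = 0.0363), with DESeq2 (0.0223), and on leaving out CD206hi of tumour 5 or CD206neg of tumour 8 or 11 (edgeR adjusted p from 0.0368 to 0.0497).

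Mfng (Entrez gene 17305, chromosome 15, 78755882 to 78773516), the Manic Fringe enzyme, was present in endothelial cells and macrophages and almost absent from both fibroblast groups. It was 98.8, 142, 53.7, 135 and 107 CPM in endothelial cells. The 5 CAF1 libraries together held 3 counts, against 6651 in endothelial cells, a ratio of 1720 (95% counting interval 587 to 8320, edgeR adjusted p = 9.45e-15). CAF2 held 0 counts, which makes endothelial cells at least 1940-fold higher (floor of 3 counts over the group, edgeR adjusted p = 1.91e-15). Against macrophages, which held 1838 counts, CAF1 was lower by a ratio of 269 (92 to 1310), and CAF2 was at least 305-fold lower (edgeR adjusted p = 2.86e-14 and 5.98e-15). Mfng was 13.5, 8.97, 13.3, 16.1 and 14.2 CPM in CD206hi and 12.7, 7.61, 10.3, 10.1 and 13.4 CPM in CD206pos, against 19.9, 31.2, 23.0, 23.1 and 30.6 CPM in CD206neg. Each CD206-positive library lay below each CD206neg library, so Mfng and Notch2 stood in opposite order between these groups. CD206hi was lower than CD206neg by 0.94 ± 0.21 on the log2 scale (edgeR adjusted p = 0.00563), and CD206pos by 1.23 ± 0.21 (adjusted p = 0.000662). Both calls were lost when library totals were used with no scaling factor (adjusted p = 0.232 and 0.0529). Endothelial cells were 6.96-fold above macrophages (log2 2.80 ± 0.19, edgeR adjusted p = 1.06e-12).

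Hey1 (Entrez gene 15213, chromosome 3, 8663359 to 8667038), a transcriptional repressor induced by Notch, was high where Dll4, Notch1 and Notch4 were high. It was 78.1, 59.4, 41.9, 104 and 56.4 CPM in endothelial cells, 9.45, 6.28, 11.9, 3.08 and 2.66 CPM in CAF1, and 0, 2.42, 1.68, 0.713 and 1.48 CPM in CAF2. The 3 sets of libraries did not overlap. Endothelial cells were 9.98-fold above CAF1 (log2 3.32 ± 0.61, edgeR adjusted p = 6.67e-05), 55.4-fold above CAF2 (log2 5.79 ± 0.70, adjusted p = 8.09e-08) and 57.8-fold above macrophages (log2 5.85 ± 0.46, adjusted p = 3.81e-12). In CAF1 the mean was 9.83% of the endothelial one, while the endothelial marker sum there was 1.60% of the endothelial one. Of that CAF1 sum Esam alone averaged 55.6 CPM and Pecam1 0.218 CPM, and the part of endothelial cells in the Hey1 level was not tested. CAF1 was 5.48-fold above CAF2 (log2 2.45 ± 0.71, edgeR adjusted p = 0.0283) and 5.79-fold above macrophages (log2 2.53 ± 0.49, adjusted p = 4.42e-05). The call between the CAF groups was lost with the tumour as a block (adjusted p = 0.0661) and on leaving out CAF1 of tumour 5, 6 or 8, or CAF2 of tumour 10 or 11 (adjusted p from 0.0552 to 0.0709). In macrophages Hey1 was 0 to 5.42 CPM, and no difference between the macrophage groups was called.

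Heyl (Entrez gene 56198, chromosome 4, 123233556 to 123249870), a Hey-family target known from mural cells, was instead highest in CAF1, as Notch3 was. The 2 genes differed in CAF2, where Notch3 was at most 1.94 CPM. In CAF1 Heyl was 80.3, 69.9, 66.8, 43.1 and 68.7 CPM in tumours 5, 6, 8, 10 and 11, and in CAF2 it was 11.8, 10.3, 21.9, 9.56 and 5.0 CPM. In endothelial cells it was 14.5, 0.0982, 22.3, 1.03 and 2.20 CPM. Again the endothelial libraries of tumours 5 and 8 stood high and the other 3 low. Macrophages held at most 0.959 CPM, and the 5 CD206neg libraries had 0 counts, which allows up to 0.0816 CPM over the group. CAF1 was 5.66-fold above CAF2 (log2 2.50 ± 0.32, edgeR adjusted p = 0.000173) and also above macrophages (adjusted p = 7.86e-12), with 3404 counts against 15, a ratio of 516 (95% counting interval 313 to 924). CAF2 was above macrophages as well (edgeR adjusted p = 6.42e-09), with 681 counts against 15, a ratio of 91.1 (54.9 to 164). Endothelial cells were lower than CAF1 (log2 -3.02 ± 0.70, edgeR adjusted p = 0.00131). That difference was -3.79 with the tumour as a block, -3.88 without the endothelial library of tumour 8 and -5.86 without those of tumours 5 and 8 (edgeR adjusted p = 2.49e-07). Against CAF2 the endothelial difference was -0.53 ± 0.66 (edgeR adjusted p = 0.542), and without the endothelial libraries of tumours 5 and 8 it was -3.39 (adjusted p = 9.4e-05), a call.

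**Figure D3:**
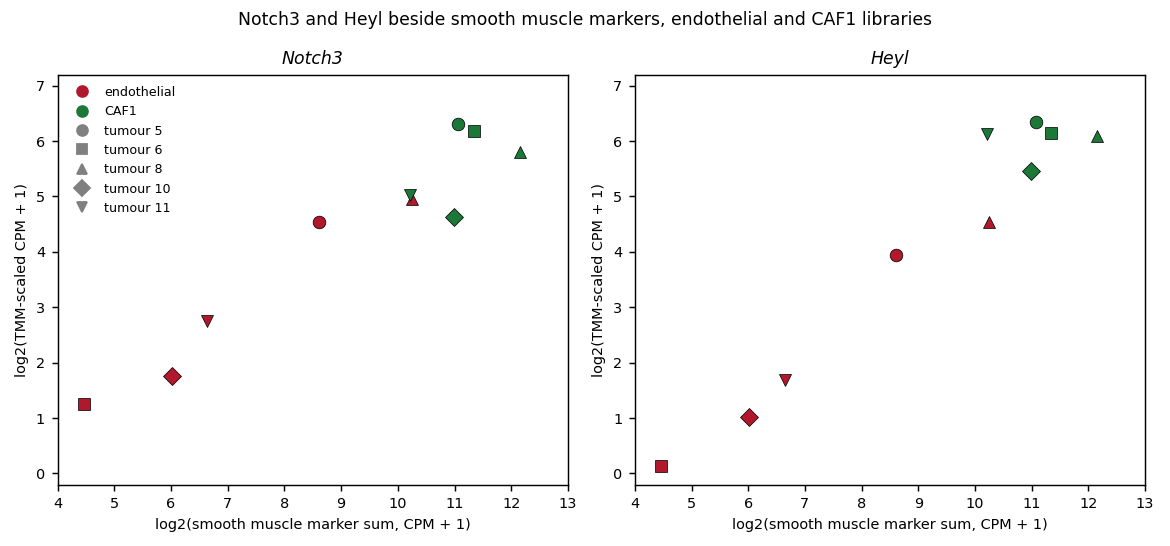
Notch3 (left) and Heyl (right) as log2(TMM-scaled CPM + 1) are plotted against the log2 summed CPM of 6 smooth muscle markers in the 5 endothelial and 5 CAF1 libraries; shapes give the tumour. Among endothelial libraries both genes are highest in tumours 8 and 5, where the smooth muscle sum is 1213 and 390 CPM, and lowest in tumour 6, where it is 21.1 CPM.

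Across the endothelial libraries Notch3 and Heyl kept the order of the smooth muscle sum. That sum was 390, 21.1, 1213, 63.8 and 98.7 CPM in tumours 5, 6, 8, 10 and 11. The pericyte sum was 1475, 682, 1555, 962 and 770.5 CPM, which puts tumour 10 above tumour 11, unlike Notch3 and Heyl. The fibroblast sum was 708, 108, 865, 69.5 and 293 CPM, and the myoepithelial sum 957, 134, 214, 43.4 and 92.9 CPM. The part of such cells in the endothelial Notch3 and Heyl values was not tested. Within CAF1, where the smooth muscle sum ran from 1182 to 4556 CPM, Heyl spanned 1.87-fold and Notch3 3.28-fold. Notch3 was lowest in the CAF1 libraries of tumours 10 and 11, at 23.8 and 31.7 CPM, whose pericyte sums were 913 and 1068 CPM, against 2132 to 2712 CPM in the other 3. Their smooth muscle sums were 2028 and 1182 CPM, against 2144 to 4556 CPM. Neither sum gave the full order: both were highest in tumour 8, while Notch3 was highest in tumour 5, at 78.3 CPM. Heyl was 68.7 CPM in CAF1 of tumour 11, where the smooth muscle sum was lowest. The other 8 members were lowest in the endothelial library of tumour 8, where the endothelial marker sum was 2359 CPM, against 5328 to 5971 CPM in the other 4. Per 1000 CPM of endothelial markers, Notch4 was 26.7, 28.5, 31.5, 36.9 and 21.1 CPM, a span of 1.75-fold, and Mfng spanned 1.29-fold. On this scale Dll4 ran from 39.0 to 77.1 CPM, with the highest value in tumour 5. Notch3 spanned 55.5-fold and Heyl 575-fold, so they remained the members that varied most between endothelial libraries.

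The order of the 6 group means was read with the test between neighbours. For Notch4, Dll4, Jag2, Mfng, Hey1 and Notch1 endothelial cells led, and each differed from the next group in the order (edgeR adjusted p from 1.82e-12 for Notch4 against CAF1 to 0.000109 for Notch1 against CD206pos). For Notch3 and Heyl CAF1 led and differed from the next group. Notch2 had no single leader: CAF2, CD206hi and CD206pos averaged 39.7, 38.7 and 39.4 CPM and their neighbours did not differ beyond their spread (edgeR adjusted p = 0.973 and 0.994). CD206hi was above CAF1 (adjusted p = 0.00408), and endothelial cells came below CD206neg (adjusted p = 5.91e-05). For Jag1 the first 4 places, held by endothelial cells, CAF1, CAF2 and CD206neg at 19.5, 24.6, 18.5 and 18.9 CPM, did not differ between neighbours (edgeR adjusted p from 0.521 to 0.946), and CAF2 was above CD206hi (adjusted p = 0.0199). Most neighbours at the low end, such as Notch4 in CAF2 and CD206pos (adjusted p = 0.472), could not be ordered.

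Endothelial cells were set against each other population to show what marks the vessel lining. Against CAF1, 6 of the 10 members were higher (Notch1, Notch4, Dll4, Jag2, Mfng and Hey1) and 3 lower (Notch2, Notch3 and Heyl), where 15.9% of all 13610 genes tested were higher and 18.8% lower. Their median log2 fold change was 2.83, against -0.00453 for all genes. Against CAF2, 7 were higher, Notch3 in addition, and only Notch2 was lower, where 23.7% of all genes were higher and 22.3% lower; the median was 5.30, against 0.0498. Against macrophages 9 were higher and Notch2 was lower, where 36.5% of all genes were higher and 24.7% lower; the median was 3.89, against 0.169. The 3 comparisons share the 5 endothelial libraries. Without those of tumours 5 and 8 the calls of Notch3 against CAF2, Heyl against CAF2 and Jag1 against macrophages (adjusted p = 0.0633) changed, and no other member's call did.

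Fibroblasts were then set against macrophages. In CAF1, 5 members were higher (Notch3, Notch4, Jag1, Hey1 and Heyl) and 2 lower (Notch2 and Mfng), where 35.7% of all genes were higher and 26.3% lower. In CAF2 only Jag1 and Heyl were higher, where 34.3% of all genes were higher, and Notch1, Jag2 and Mfng were lower, where 28.2% were lower. The median over the 10 members was 1.47 for CAF1 and 0.276 for CAF2, against 0.123 and 0.0543 for all genes. With Dll4 and Heyl, each at 0 in 1 macrophage group, taken as ratios of pooled counts, the CAF1 median was 0.906. Notch4 in CAF2 was not called (log2 0.99, edgeR adjusted p = 0.104), but was without CAF2 of tumour 5 (adjusted p = 0.0184). For CAF2, 2 of 10 higher and 3 of 10 lower are near or under those shares of all genes. CAF2 had 3 counts of Jag2, against 544 in macrophages, lower by a ratio of 90.3 (30.7 to 439, edgeR adjusted p = 1.92e-07).

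CAF1 against CAF2 compared the fibroblast gates. Of the 6 members with enough counts to be tested, Notch1, Notch3, Hey1 and Heyl were higher in CAF1 and Notch2 was lower, with Jag1 not called (log2 0.43 ± 0.19, edgeR adjusted p = 0.134). Of all 12149 genes 10.9% were higher and 8.59% lower. Pericyte sums were 913 to 2712 CPM in CAF1 and 156 to 221 CPM in CAF2, and smooth muscle sums were 1182 to 4556 CPM and 145 to 291 CPM. All 9 pericyte and all 6 smooth muscle markers were detected in both groups, and the part of mural cells in these differences was not tested. Notch4, Dll4, Jag2 and Mfng had too few counts for the test. For Jag2 the sums were 307 counts in CAF1 and 3 in CAF2, a ratio of 116 (39.3 to 566), and each CAF1 library was above each CAF2 library.

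Macrophages were compared by CD206 and MHCII, again with 6 members tested of 10. Between CD206hi and CD206neg, Notch2 was higher and Mfng lower, where 6.14% of 11052 genes were higher and 3.90% lower. Between CD206pos and CD206neg, Notch2 was higher and Jag2 and Mfng were lower, where 8.85% were higher and 5.85% lower. With the tumour as a block the calls were 4 and 5 in place of 2 and 3: Jag1 and Jag2 joined in CD206hi, and Notch1 (log2 0.71, edgeR adjusted p = 0.0302) and Jag1 in CD206pos. Notch1 in CD206pos was also called without CD206pos of tumour 8 (edgeR adjusted p = 0.0456). CD206hi and CD206pos are named for high and positive CD206 and for low and high MHCII, so their contrast may not be of MHCII alone. They had 0 of 6 members called by edgeR, 0 at an unadjusted p under 0.05 and 0 by DESeq2. Of all genes 0.00905% were higher and 0.181% lower. The largest difference was that of Hey1, at log2 -1.56 ± 0.85 (edgeR adjusted p = 0.778). Without the CD206neg libraries of tumours 6 and 8 the same 2 and 3 members were called.

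**Figure D4:**
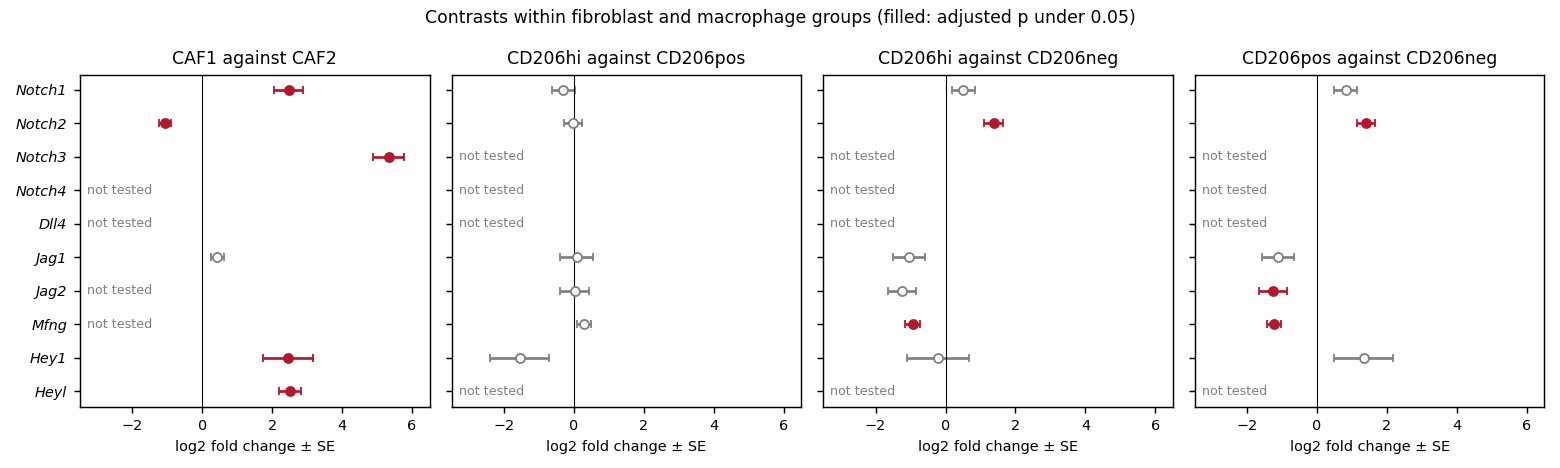
Points give the log2 fold change and bars its standard error for each member in CAF1 against CAF2 and in the 3 macrophage comparisons, the first named group over the second; filled points passed an adjusted p under 0.05. Notch3 has the largest change between the CAF groups, Notch2 and Mfng lie on opposite sides of 0 in both comparisons against CD206neg, and CD206hi against CD206pos has no filled point.

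The rest of the pathway was followed through 61 listed genes, of which 56 were tested between lineages. Hes1, a repressor induced directly by Notch, was 288, 296, 171, 363 and 339 CPM in endothelial cells, 93.5 to 163 CPM in CAF1, 94.7 to 166 CPM in CAF2, 31.5 to 68.0 CPM in CD206hi, 35.2 to 56.2 CPM in CD206pos and 10.1 to 23.3 CPM in CD206neg. It was higher in CD206hi (log2 1.63 ± 0.25, edgeR adjusted p = 0.000336) and CD206pos (log2 1.45 ± 0.25, adjusted p = 0.000713) than in CD206neg, with no overlap, as Notch2 was. Nrarp, a feedback inhibitor of Notch, was 88.4 to 172 CPM in endothelial cells, 7.79 to 26.4 CPM in CAF1 and at most 1.14 CPM in CAF2. Nrarp was higher in endothelial cells than in CAF1 (log2 2.78 ± 0.44, edgeR adjusted p = 7.37e-06) and higher in CAF1 than in CAF2 (log2 5.45 ± 0.72, adjusted p = 0.00022). The 5 genes tested from the list of other targets were Hes1, Hey2, Nrarp, Bhlhe40 and Id1, and whether Notch drives them here was not tested. In endothelial cells 3 were higher than in CAF1, where 15.9% of all genes were, and Bhlhe40 was lower. Against CAF2 4 were higher, where 23.7% of all genes were, and against macrophages 5, where 36.5% were. These include Hey2, which averaged only 0.642 CPM in endothelial cells, with 34 of its 50 counts in the library of tumour 8. In CAF1 Hey2 averaged 2.46 CPM.

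Of 8 arterial genes, 6, 7 and 8 were higher in endothelial cells against CAF1, CAF2 and macrophages, beside 15.9%, 23.7% and 36.5% of all genes. Unc5b, which encodes a netrin receptor, did not pass the test against CAF1, at 32.0 to 66.4 CPM in endothelial cells and 31.6 to 55.2 CPM in CAF1 (log2 0.16 ± 0.43, edgeR adjusted p = 0.826), and neither did Bmx (adjusted p = 0.0517). Sox17, an arterial transcription factor, was 60.0 to 101 CPM in endothelial cells and at 0 in all CAF1 libraries. Gja4, which encodes connexin 37, was 53.5 to 74.8 CPM in endothelial cells, 11.5 to 45.9 CPM in CAF1, at most 0.121 CPM in CAF2 and at 0 in all 15 macrophage libraries. Gja4 was thus also called between CAF1 and CAF2 (edgeR adjusted p = 4.62e-06). Among other ligands, Dll1 was 11.8 to 44.5 CPM in endothelial cells and 0.879 to 5.57 CPM in CAF1 (log2 3.50 ± 0.60, edgeR adjusted p = 4.81e-05).

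Genes of the machinery that makes or reads the signal went in both directions. Rbpj, the DNA-binding partner of all Notch receptors, was 10.1 to 23.6 CPM in endothelial cells, 17.7 to 24.3 CPM in CAF1, 34.1 to 62.8 CPM in CAF2 and 56.9 to 218 CPM in macrophages. It was lower in endothelial cells than in macrophages (log2 -3.19 ± 0.24, edgeR adjusted p = 9.16e-13) and lower in CAF1 than in CAF2 (log2 -1.06 ± 0.19, adjusted p = 0.00154). Maml3, a coactivator of the same complex, was higher in endothelial cells than in CAF1, CAF2 and macrophages (log2 0.92 ± 0.36, 1.33 ± 0.36 and 1.80 ± 0.27, edgeR adjusted p = 0.0441, 0.00322 and 1.28e-06). Of 12 genes of the nuclear complex 7 were higher and 1 lower in endothelial cells than in macrophages, where 36.5% of all genes were higher and 24.7% lower. Of 9 genes of receptor proteolysis, 7 were lower in endothelial cells, 8 in CAF1 and 6 in CAF2, each against macrophages, where 24.7%, 26.3% and 28.2% of all genes were lower. Among them Furin, which cuts the receptor on its way to the surface, had a log2 fold change of -2.77 ± 0.34 in endothelial cells (edgeR adjusted p = 4.06e-08), and Adam17, a sheddase, one of -1.87 ± 0.21 (adjusted p = 4.07e-09). Against the fibroblasts the same list had 2 genes higher and 2 lower in endothelial cells than in CAF1, and 1 higher and 3 lower than in CAF2. Of all genes 15.9% were higher and 18.8% lower against CAF1, and 23.7% and 22.3% against CAF2. The numbers in this list were thus near the background. Adam10, another sheddase, was higher in endothelial cells than in CAF1 (log2 1.48 ± 0.26, edgeR adjusted p = 3.51e-05) and CAF2 (log2 1.36 ± 0.26, adjusted p = 7.02e-05). The Fringe gene Lfng was also lower in endothelial cells than in macrophages (log2 -3.38 ± 0.48, edgeR adjusted p = 3.95e-07), at 2.24 to 11.9 CPM against 19.3 to 159.5 CPM, the reverse of Mfng. Numbl, an inhibitor of Notch in the Numb family, was 0.237 to 4.70 CPM in endothelial cells, 26.2 to 52.6 CPM in CAF1 and 53.8 to 66.6 CPM in CAF2 (log2 -4.32 ± 0.53 and -4.90 ± 0.55 for endothelial cells against CAF1 and CAF2, edgeR adjusted p = 1.85e-07 and 1.74e-08). Its relative Numb was instead higher in endothelial cells than in CAF1 (log2 1.13 ± 0.22, edgeR adjusted p = 0.000187) and macrophages (log2 1.39 ± 0.17, adjusted p = 3.05e-08). In all, 18 of the 56 tested genes were higher and 11 lower in endothelial cells against CAF1, 22 and 12 against CAF2, and 28 and 16 against macrophages. The shares of all genes were 15.9% and 18.8%, 23.7% and 22.3%, and 36.5% and 24.7%, so the numbers lower than in CAF1, CAF2 and macrophages were near the background. Between CD206hi and CD206neg 3 of 43 were higher and 4 lower, and between CD206pos and CD206neg 4 and 4, beside 6.14% and 3.90%, and 8.85% and 5.85%, of all genes. The numbers higher were near the background. Dtx4, which codes for a Deltex-family ubiquitin ligase, was lower in both, at 16.3 to 37.7 CPM in CD206hi and 14.9 to 31.0 CPM in CD206pos, against 29.9 to 89.1 CPM in CD206neg (log2 -1.13 ± 0.29 and -1.46 ± 0.29, edgeR adjusted p = 0.017 and 0.00272).

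Among all genes tested, those whose log2(TMM-scaled CPM + 1) followed a member most closely over the 30 libraries were named as a description; the libraries share their 6 sorts and 5 tumours, so these values mostly restate the populations. Notch4 was most like Robo4, AU021092 and Sox17 (Pearson's r = 0.991 each), and Dll4 most like Myct1 (0.994), AU021092 and Arhgef15 (0.993 each). Heyl was most like Ednra (0.990), the receptor for endothelin, Avpr1a (0.986) and Foxs1 (0.980), and Notch3 like Adra2a (0.974), Serpina1b (0.969) and Kcnmb1 (0.968). Mfng was closest to Rasgrp3 (0.971), Hey1 to Emcn (0.956), Jag2 to Scarb1 (0.939), Notch1 to Cracr2b (0.928) and Notch2 to Ifi202b (0.893). Serpina1b and Ifi202b belong to families of near-identical genes, so their counts are uncertain. Jag1 had the weakest best match, Gsr (0.780). Between members, Notch4 and Dll4 had the highest r (0.985), Notch4 and Hey1 had 0.914, Notch3 and Heyl had 0.843, and Notch2 ran against Jag2 (-0.796) and Notch4 (-0.795).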

How the data were processed

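The authors deposited whole-number read counts per gene for 30 libraries of SMART-Seq v4 complementary DNA, and a matrix of normalised signal that equals those counts divided by 1 factor per library. Per the submitters' processing notes, reads were handled with Trimmomatic 0.36, HISAT2 2.0.4, SAMtools 1.3.1 and DESeq2 1.26 on mm10; what each tool did, and which counter, annotation and strand setting were used, is not given in the sources used here. All 14118 genes have at least 72 counts over the libraries. Full-length amplification without molecular identifiers means that counting intervals and floors cover counting error only.

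The counts as deposited were tested with edgeR 4.0.16 (R 4.3.3, limma 3.58.1): filterByExpr, TMM factors, the quasi-likelihood F test, and Benjamini-Hochberg adjustment over all genes tested, called at an adjusted p under 0.05. Contrasts between lineages used 1 fit of 30 libraries (13610 genes), CAF1 against CAF2 a fit of 10 (12149 genes), and macrophage contrasts a fit of 15 (11052 genes); macrophages as a whole are the mean of their 3 groups on the log2 scale. The first named group is over the second. Levels use TMM factors of all 30 libraries. Levels between genes were divided by exon length from GENCODE vM21. On simulated counts edgeR found 97% of 4-fold and 25% of 2-fold changes in endothelial cells against CAF1, with 3.17% of calls false. Those counts had a single spread for all genes and no likeness within tumours. Only 100 genes per fold were changed, all of them with higher counts than several members have. These percentages therefore need not hold for the results here.

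Libraries with the same number come from the same tumour, and their deviations from group means correlated at 0.0213 to 0.574, 0.0205 to 0.381 and 0.111 to 0.648 in the 3 fits; the tumour as a block was an alternative. Other alternatives were DESeq2 1.42.0, RLE factors, other filters, other sets of libraries and leaving out libraries. Using library totals alone, or leaving out tumour 5 or the endothelial libraries of tumours 5 and 8, was chosen after seeing the data. The members and lists were chosen with earlier results of these data known. Genes named beyond the members are, for each list and comparison, up to 2 called genes per direction with the largest change whose higher group averaged 10 CPM or more, the 3 most alike genes per member, and markers where they touch a member. Hey2 and Bmx fall outside that rule and were named beside the counts of their lists. RefSeq windows were found for 7 members; none was given for Mfng, Hey1 and Heyl. Figures were drawn with matplotlib 3.10.9.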

Additional observations from a re-analysis of the deposited data

Results flagged for a closer look

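Notch1 in the CD206hi macrophages of tumour 6 was 52.8 CPM, against 18.4 to 26.5 CPM in the other 4 CD206hi libraries, a gap that took up more of the group's range than Dixon's critical value at the 95% level allows. Of the 40 sets of 5 libraries checked, it was the 1 that stood apart in this way, and chance marks about 1 in 20 such sets. In tumour 6 the CD206pos library had 43.5 CPM of Notch1 and the CD206neg library 26.9 CPM. The luminal epithelial marker sum of that CD206hi library was 399 CPM, against 44.8 to 164 CPM in the other 4, and its part in the value was not tested.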

How the results depend on the processing

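Over 74 member fold changes, 2488 values were recomputed: 2415 kept direction and side of the threshold, 47 lost a call, 26 gained one and 0 reversed. Member calls lost or gained by single libraries or the tumour block stand beside the members. Between CD206hi and CD206neg 1110 genes were called, against 1791 with the tumour as a replicate block, 729 with library totals and no scaling factor, and 545 without the CD206neg libraries of tumours 6 and 8; the members called were 2, 4 with the block and 1 with library totals. Between CD206pos and CD206neg 1625 genes were called, against 2800 with the block, 920 with library totals, 930 without those 2 libraries and 1074 without tumour 5; the members called were 3, 5 with the block and 1 with library totals. Between CD206hi and CD206pos 21 genes were called, against 97 with the block, 83 with DESeq2 and 36 in the fit of all 30 libraries, and from 5 without CD206pos of tumour 10 to 48 without CD206pos of tumour 8. The block changed no member's call beyond those given, and no other number of genes or members called moved by over 1.5-fold with it. Smaller changes did occur. With the block 2561 genes were higher in endothelial cells than in CAF1, in place of 2165, and 3630 than in CAF2, in place of 3230. The whole order of the 6 group means was the same for 6 of the 10 members in CPM of the library total and for 6 in the authors' normalised values. The group with the highest mean differed for Jag1 alone, which was highest in endothelial cells on library totals and in CAF1 on the other scales.

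Library totals moved the median log2 fold change of all genes, to 0.433 for endothelial cells against CAF1, 0.440 against CAF2 and 0.894 against macrophages, 0.398 for CAF1 and 0.389 for CAF2 against macrophages, and 0.162 for CD206hi and 0.190 for CD206pos against CD206neg. The share of calls that were higher was then 69.0% in place of 45.8% for endothelial cells against CAF1, 70.6% in place of 51.6% against CAF2 and 82.9% in place of 59.7% against macrophages. It was 70.6% in place of 57.5% for CAF1 and 69.0% in place of 54.9% for CAF2 against macrophages, and 78.7% in place of 61.2% for CD206hi and 83.3% in place of 60.2% for CD206pos against CD206neg. On that scale CAF2 was called higher than macrophages for Notch2 (log2 0.85, adjusted p = 0.00733) and Notch4 (adjusted p = 0.0254), and the call of Notch2 between CAF1 and macrophages was lost (log2 -0.30, adjusted p = 0.386). The cause was not tested. Depth limits Dll4, Mfng and Jag2 in CAF2, Dll4 and Mfng in CAF1, and Heyl, Dll4 and Notch4 in macrophages. In each of these a whole group held 0 to 24 counts.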

Other observations

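Some listed genes of the pathway not described above were also unevenly placed. Neurl3, of the Neuralized family of ubiquitin ligases, was 18.0, 26.3, 8.0, 21.8 and 32.1 CPM in endothelial cells, and 0 to 0.561 CPM in CAF1 (log2 6.36 ± 0.59, edgeR adjusted p = 1.12e-09). It was 50.5 to 191 CPM in macrophages, above endothelial cells (log2 -2.42 ± 0.37 for endothelial cells against macrophages, edgeR adjusted p = 1.65e-06). Id1, a helix-loop-helix inhibitor, was 84.6 to 366 CPM in endothelial cells, 17.4 to 37.0 CPM in CAF1 and 7.73 to 16.8 CPM in CAF2. The endothelial log2 fold change of Id1 was 3.08 ± 0.40 against CAF1 and 4.17 ± 0.43 against CAF2 (edgeR adjusted p = 4.74e-07 and 3.51e-09). Psen2, a catalytic subunit of gamma-secretase, was 20.3 to 30.4 CPM in CD206hi and 23.9 to 32.9 CPM in CD206pos, against 36.6 to 54.7 CPM in CD206neg, with no overlap (log2 -0.82 ± 0.17 and -0.68 ± 0.17, edgeR adjusted p = 0.00444 and 0.013).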
